A study of Mus musculus with 31 samples.

Results

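H3K9me3 was compared between mouse primordial germ cells of embryonic day E10.5 and female germ cells of E13.5. The members are the broad-peak lists of 6 ChIP libraries, 3 of each group, out of 31 samples in the series, of which 18 have a peak list and 13 are inputs. They were chosen by mark, stage and sex as the labels give them, and only autosomes 1 to 19 were read. All cells carried the wild-type genotype on a C57BL/6 x GOF18delta_PE-EGFP background, in which a germ-cell reporter allows sorting. E10.5 cells came from a pool of several embryos whose sex is not given, and the E13.5 group is labelled female. Each ChIP started from 1000 sorted cells, and unfixed chromatin was fragmented by micrococcal nuclease (ultra-low-input native ChIP). The labels do not say whether libraries of 1 group came from separate animals, so a p-value here measures the spread between libraries, which may be technical. Peak lists hold no expression, so the identity of the cells could not be checked against marker genes.

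H3K9me3 is trimethylation of lysine 9 of histone H3, the mark of constitutive heterochromatin. It is laid down by SETDB1 and the SUV39H enzymes, is read by HP1 proteins, and covers pericentromeric satellite repeats, endogenous retroviruses and other transposons, and clusters of KRAB zinc finger genes. By E13.5 germ cells have lost most of their DNA methylation, and the female cells are about to enter meiosis. In that setting H3K9me3 is known to keep some repeats silent. Mouse autosomes carry the centromere at the end where coordinates begin, so the first megabases of each chromosome lie next to pericentromeric repeats.

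The E10.5 lists differed from each other far more than the female lists did. The autosomal length in peaks was 1.80 Mb in E10.5 replicate 1, 42.7 Mb in replicate 2 and 0.351 Mb in replicate 3, against 4.83, 9.75 and 3.29 Mb in the 3 female lists. The longest E10.5 list was 121 times the shortest, and the longest female list was 2.97 times the shortest. The lists held 2643, 23717 and 897 autosomal peaks at E10.5 and 8786, 16342 and 5280 in females. E10.5 replicate 2 stood above all female lists and replicates 1 and 3 stood below them, so no single statement of more or less H3K9me3 at E10.5 covers the 3 lists. The mean was 14.9 ± 24.0 Mb at E10.5 and 5.96 ± 3.37 Mb in females (SD, n = 3 each), a difference of -8.99 Mb (exact two-sided permutation p = 1, adjusted p = 1 over 3 tests). With 3 libraries against 3 such a test cannot go below 0.1. Without E10.5 replicate 2 the difference turned to 4.88 Mb higher in females. The H3K9me3 input titled as E10.5 replicate 2 carries the stage label E13.5, and the part of this in the length of that list was not tested. No read counts accompany the lists, so depth is unknown and only the number of peaks shows how much each library yielded.

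Peak width set E10.5 replicate 2 apart in the same way. The median autosomal peak was 464, 1068 and 298 bp wide at E10.5 and 397, 475 and 462.5 bp wide in females. The female values lie between the lowest and the highest E10.5 value. Peaks of at least 5 kb held 30.8% of the length of E10.5 replicate 2, 2.08% of replicate 1 and none of replicate 3, against 2.46, 2.12 and 4.16% in the female lists. The mean median width was 610 ± 405 bp at E10.5 and 445 ± 41.9 bp in females (SD, n = 3 each), a difference of -165 bp (exact two-sided permutation p = 0.8, adjusted p = 1), which became 63.8 bp wider in females without replicate 2.

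**Figure D1:**
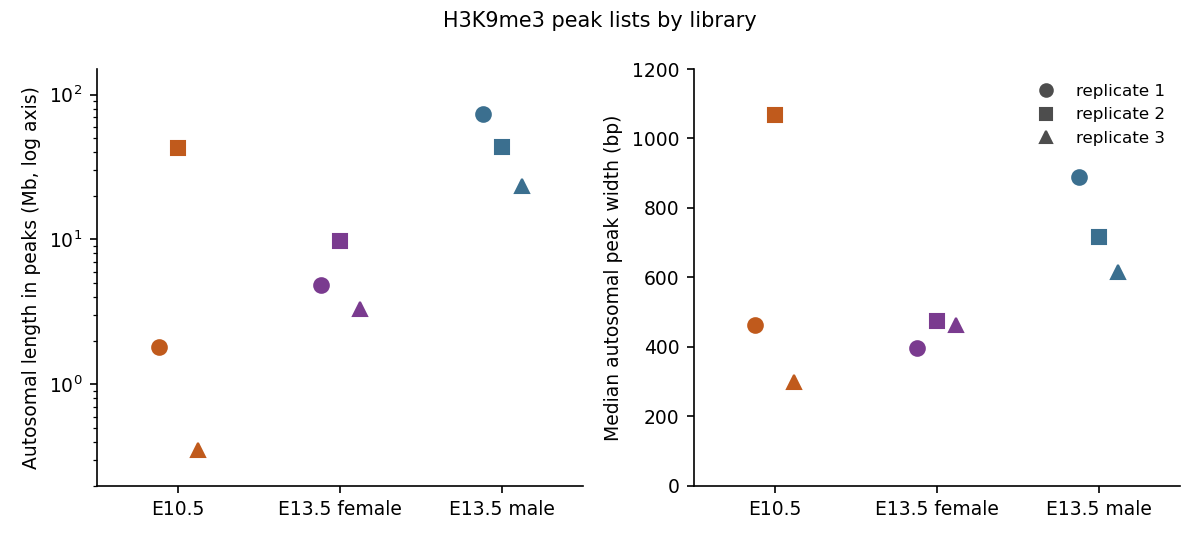
Autosomal length in H3K9me3 peaks (left, Mb, log axis) and median peak width (right, bp) with 1 point per library of the E10.5 group and of each sex at E13.5. E10.5 replicate 2, at 42.7 Mb and 1068 bp, lies near the male lists, and E10.5 replicates 1 and 3 lie below the female lists in length.

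The genome was cut into 10-kb bins of the mm9 build, and a list was said to hold a bin when at least 1 kb of it lay in peaks. The E10.5 lists held 537, 11919 and 57 bins and the female lists held 1230, 3036 and 759. In all, 12535 bins were held by at least 1 of the 6 lists. Because the lists differ so much in length, each E10.5 list is given apart.

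Most bins held by E10.5 replicate 3, the shortest list, were also held in females. Of its 57 bins, 52 (91.2%, exact 95% interval 80.7 to 97.1%) were held by at least 1 female list and 41 by all 3. The 57 bins are 6.99% of the 816 that this list touched at all, and counting any overlap in both stages the share was 78.2%. Of the 537 bins of replicate 1, 338 (62.9%, 58.7 to 67.0%) were held by at least 1 female list and 52 by all 3. Of the 11919 bins of replicate 2, 3415 (28.7%, 27.8 to 29.5%) were held by at least 1 female list and 163 by all 3. At the 1-kb limit the share thus fell as the E10.5 list grew longer. With any overlap it was 84.03% for replicate 1, 58.5% for replicate 2 and 78.2% for replicate 3. The order of replicates 1 and 3 therefore depends on the limit. These intervals cover counting error only, and neighbouring bins are not independent.

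Read from the other side, replicate 2 held most female bins, and every bin that the 3 female lists shared. The 3 female lists shared 163 bins in 111 separate regions, and E10.5 replicate 2 held 100% of them (exact 95% interval 97.8 to 100%). Replicate 1 held 31.9% of the shared female bins (24.8 to 39.6%) and had at least 1 base in 82 of them. Replicate 3 held 25.2% (18.7 to 32.5%) and had at least 1 base in 91. Among the 4019 bins of any female list, replicate 2 held 85.0%, replicate 1 held 8.41% and replicate 3 held 1.29%. The share held by replicate 2 was 81.5% for the 3176 bins found in 1 female list, 97.8% for the 680 bins in 2 lists and 100% for the 163 bins in 3 lists. Of the 604 female bins outside replicate 2, 589 came from a single female list, and 323 of those still had some base in replicate 2.

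**Figure D2:**
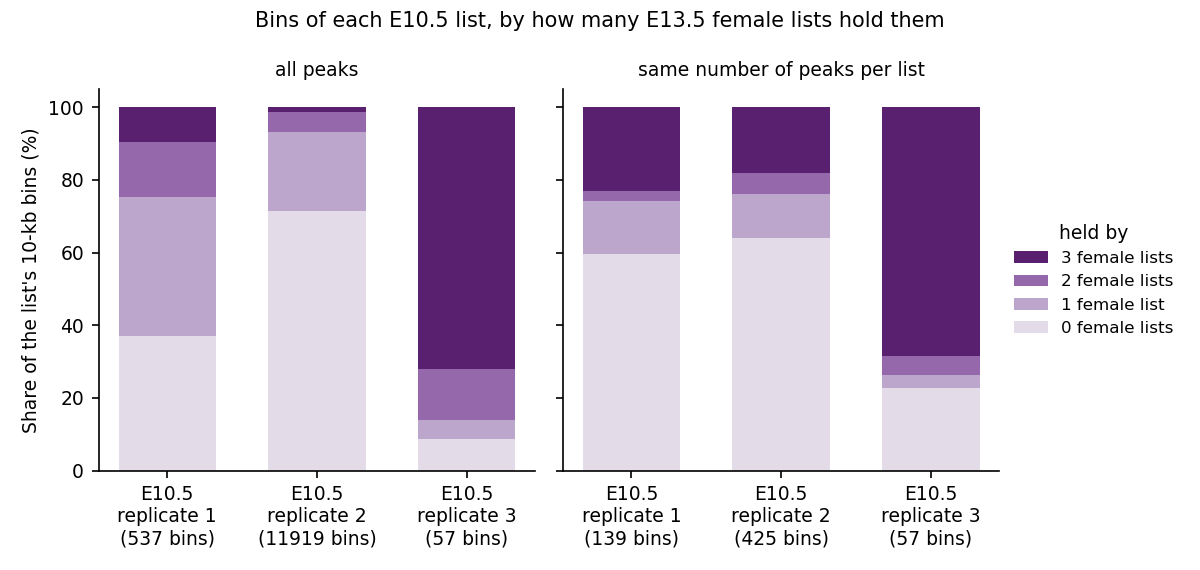
Share (%) of the 10-kb bins of each E10.5 list that were held by 0, 1, 2 or 3 female lists, with all peaks (left) and with the 897 highest-scoring peaks of every list (right). With all peaks 71.3% of the bins of replicate 2 and 8.77% of those of replicate 3 were in no female list.

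Within E10.5 replicate 2, the bins that were also marked in females were the more heavily covered ones. The median length in replicate 2 peaks was 2.07 kb in bins of no female list, 3.92 kb in bins of 1, 5.44 kb in bins of 2 and 7.36 kb in bins of all 3. In replicate 1 the same medians were 1.33, 1.43, 1.44 and 1.94 kb. Among the 8504 replicate 2 bins of no female list, 63.5% still had some female peak below 1 kb, and 3106 had no female base. Male germ cells of E13.5, whose lists are longer than every female list, held many of the same places. At least 1 male list held 88.2% of the replicate 2 bins that no female list held, and all 3 male lists held 31.9% of them, against 97.5% of the bins that all 3 female lists held. Longer lists hold more of any set of bins, and the part of list length in these shares was not tested.

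**Figure D3:**
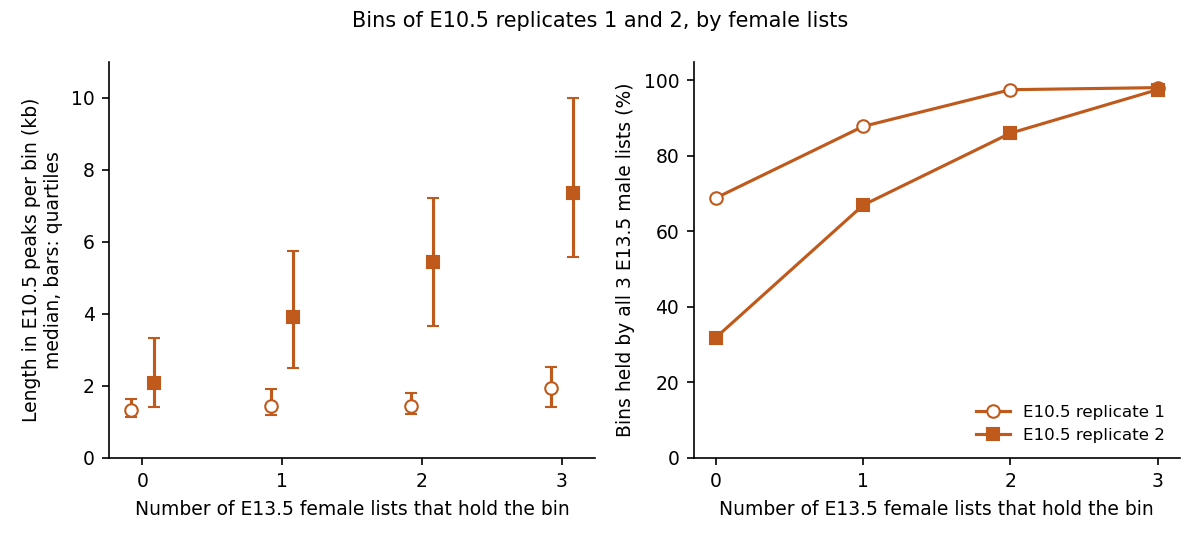
Length in E10.5 peaks per 10-kb bin (left, kb, median with quartiles) and share of bins held by all 3 male lists (right, %), for bins of E10.5 replicates 1 and 2 split by the number of female lists that hold them. In replicate 2 the median goes from 2.07 kb at 0 female lists to 7.36 kb at 3, and the male share goes from 31.9 to 97.5%.

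To remove the difference in the number of calls, each list was cut to its 897 highest-scoring autosomal peaks, the number in the shortest list. Scores come from the authors' peak caller and were used only to rank peaks within a list. Lengths still differed, at 0.592, 1.93 and 0.351 Mb for E10.5 and 0.636, 0.720 and 0.736 Mb for females. At this number 59.7% of the bins of E10.5 replicate 1 and 64% of those of replicate 2 were in no female list, against 22.8% for replicate 3. The 3 female lists then shared 78 bins, of which E10.5 replicate 1 held 32 (41.0%), replicate 2 held 77 (98.7%) and replicate 3 held 39 (50%). Between pairs of female lists 54.6 to 68.5% of the bins of 1 list were in the other. From an E10.5 to a female list the range was 23.3 to 75.4%, and from a female to an E10.5 list it was 26.3 to 81.8%. Between pairs of E10.5 lists it was 11.1 to 82.5%. The cut lists held 139, 425 and 57 bins at E10.5 and 125, 143 and 152 in females, and unlike bin counts widen such ranges. With equal numbers of peaks the E10.5 lists thus differed less in length than with all peaks. They still differed more from each other than the female lists did. The part of the bin counts in this was not tested.

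All 6 lists shared 19 bins in 12 regions, which is 0.152% of the 12535 bins tested. Every one of the 19 bins was also held by all 3 male lists. These regions are the H3K9me3 that every list of both stages held at the 1-kb limit. Their number depends on the shorter E10.5 lists, since it was 52 bins without E10.5 replicate 3 and 41 without replicate 1. It was 100 bins with any overlap and 0 with at least 50% of the bin in peaks. Genes at these positions are not named, because no annotation of the mm9 build was used here.

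The shared region chr9:3000001-3040000 lies at the centromere-proximal start of chromosome 9. Of its 40 kb, peaks covered 36.4, 38.3 and 11.4 kb at E10.5, 33.7, 28.0 and 29.8 kb in females and 34.5 to 36.1 kb in males. H3K27me3, the Polycomb mark, was called there too, in all 9 lists of that mark and over 6.74 to 27.6 kb. The part of repeat sequence, on which reads of any library can pile up, was not tested. Among the 19 shared bins 4 touched a peak of all 9 H3K27me3 lists, and 12 touched no H3K27me3 peak of any list.

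The largest shared region without any H3K27me3 peak was chr7:67000001-67040000. Peaks covered 9.03, 35.5 and 6.18 kb of it at E10.5 and 10.96, 17.96 and 14.9 kb in females. The female values lie above E10.5 replicates 1 and 3 and below replicate 2. On chromosome 11 the bin chr11:3090001-3100000 was covered over its full 10 kb in all 3 female lists and in E10.5 replicate 2, but over 4.49 and 3.88 kb in E10.5 replicates 1 and 3. Nearby, chr11:3060001-3070000 was again full in the 3 female lists and in E10.5 replicate 2, with 2.07 and 1.31 kb in the other E10.5 lists.

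Another shared bin had nearly the same extent in every library. In chr13:74660001-74670000 peaks covered 2.19, 2.54 and 2.32 kb at E10.5 and 2.19, 2.46 and 2.19 kb in females. The male lists gave 2.45 to 2.66 kb there. Other shared places varied more. In chr10:7230001-7240000 peaks covered 5.97, 7.04 and 4.30 kb at E10.5 and 5.30, 5.33 and 5.22 kb in females, with 6.14 to 6.15 kb in males. The 3 female lists were alike there, and the E10.5 lists lay on both sides of them. The other shared single bins, on chromosomes 1, 5 and 17, had between 1.01 and 2.71 kb in E10.5 replicates 1 and 3, between 6.03 and 10 kb in replicate 2, and between 1.65 and 10 kb in females.

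A single stretch of chromosome 1 held a large part of the H3K9me3 that the female lists shared. Between chr1:84960001 and chr1:87530000, a span of 2.57 Mb, lay 37 of the 163 shared female bins, and 43 of the 163 were on chromosome 1. Peaks covered 31.1, 415 and 45.7 kb of the span at E10.5 and 146, 249 and 188 kb in females. As a share of each list's length this was 1.73, 0.973 and 12.99% at E10.5 and 3.03, 2.55 and 5.71% in females. The shortest E10.5 list gave this stretch the largest share of all 6 lists. The longest region shared by all female lists lay in it, at chr1:85220001-85350000, with 15.2, 114.7 and 15.5 kb in E10.5 peaks and 55.4, 85.5 and 65.3 kb in female peaks. A neighbouring region, chr1:87460001-87530000, was the longest one that all 3 female lists held and E10.5 replicate 1 did not. It had 0.984, 57.9 and 5.30 kb in E10.5 peaks and 27, 39.5 and 32.5 kb in female peaks. The bounds of this stretch were chosen after the positions of the shared bins were seen.

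At the 1-kb limit, differences between the stages that all libraries shared were few. Only 2 bins were held by all 3 E10.5 lists and by no female list (0.016% of 12535), and 0 bins were held by all 3 female lists and by no E10.5 list (0%). The first count is set by the shortest list, since without E10.5 replicate 3 it was 188, and the second by the longest, since without E10.5 replicate 2 it was 89. Counting any overlap of a base, the 2 counts were 11 and 57, so their order depends on the 1-kb limit. At chr2:27350001-27360000 peaks covered 4.24, 7.46 and 1.03 kb at E10.5 and 0, 0 and 0 kb in females. No female list had a single base there, while the E10.5 peaks scored high within their own lists (percentiles 90.7, 99.6 and 92.3 of the authors' score). At chr14:45290001-45300000 peaks covered 2.44, 3.94 and 2.11 kb at E10.5 and 0, 0.248 and 0.287 kb in females. The 2 female peaks there were among the lowest of their lists, at percentiles 14.9 and 8.26. All 3 E10.5 values exceeded all 3 female values at both places, which the rule for this class requires.

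The same 2 places were marked in male germ cells of E13.5. The male lists had 5.70, 6.41 and 5.52 kb at chr2:27350001-27360000 and 3.83, 3.83 and 3.79 kb at chr14:45290001-45300000, with best scores between percentiles 99.7 and 99.9 of their lists. The male values lay within the E10.5 range at both places. The low female values are fixed by the rule that chose these bins, so the gap between the sexes there is a description. The sex of the E10.5 pool is not given. Its libraries had 17, 85 and 28 peaks on the Y chromosome, out of 2903, 26281 and 1107 peaks on all chromosomes. Females had 6, 5 and 6 out of 10910, 20297 and 6720, and males had 87 to 135 in lists of 30688 to 56632. Relative to the number of peaks on all chromosomes, Y peaks were thus more frequent in each E10.5 list than in any female or male list. For E10.5 replicate 2 the margin over the males was narrow. Relative to autosomal length in peaks that order did not hold. E10.5 replicate 2 had 85 Y peaks beside 42.7 Mb, and male replicate 2 had 135 beside 43.4 Mb. Stage and sex cannot be told apart in the E10.5 to female comparison for such places.

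With the equal number of peaks another bin joined the class, chr18:7320001-7330000, with 3.24, 4.57 and 1.98 kb at E10.5, 0, 1.30 and 0.708 kb in females and 4.88, 5.39 and 4.55 kb in males from all peaks. It too was marked in every male list.

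**Figure D4:**
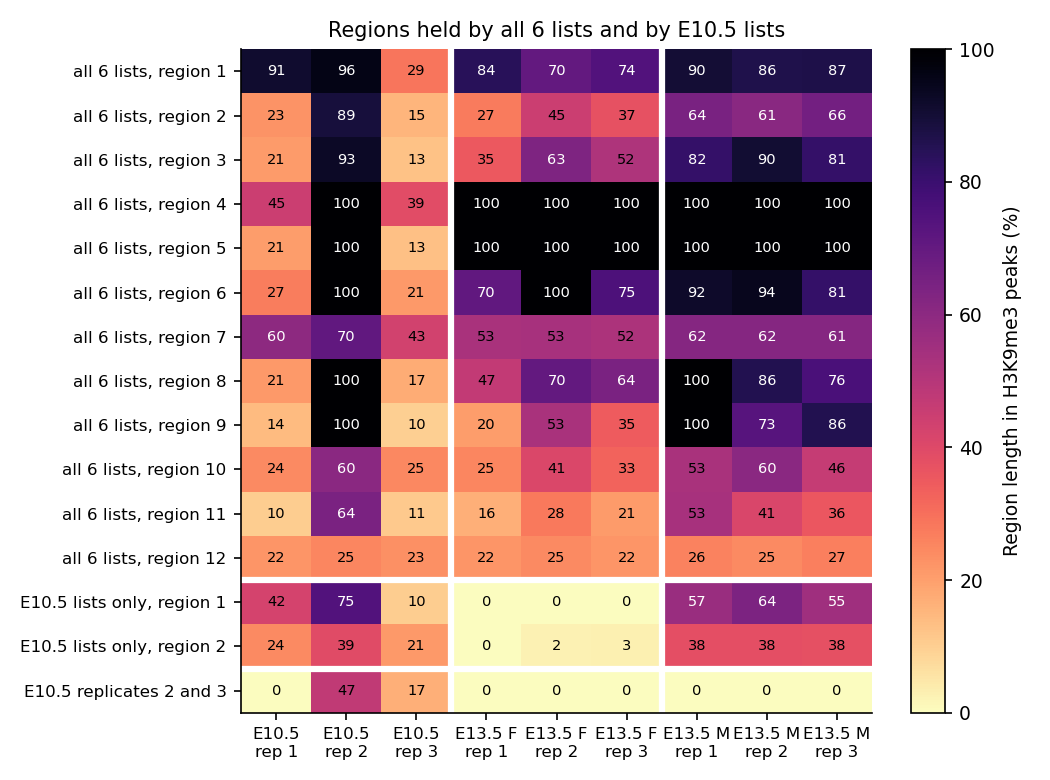
Share (%) of each region that lay in H3K9me3 peaks, for 9 libraries (F, female; M, male). The upper block holds the 12 regions shared by all 6 lists in the order of their length, the middle block the 2 bins of all 3 E10.5 lists and no female list, on chromosomes 2 and 14, and the lowest row the chromosome 10 bin of E10.5 replicates 2 and 3. The middle block is at or near 0 in all 3 female lists and not in the male lists.

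A looser rule, 2 or more lists of 1 stage and none of the other, gave 190 bins for E10.5 (1.52% of 12535) and 13 for females (0.104%). Among the 190 bins 188 came from exactly 2 E10.5 lists, and 170 still had some female peak base. All 3 male lists held 135 of them and no male list held 5. The class rests on E10.5 replicate 2. Without it 2 of the 190 bins were held by both remaining E10.5 lists, against 188 for replicates 1 and 2 together.

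In 20 of the 190 bins no female list had a base. The leading ones after the chromosome 2 bin were chr10:81130001-81140000, with 2.38, 7.11 and 0 kb at E10.5 and 3.33 to 6.73 kb in males, and chr4:60050001-60060000, with 1.18, 8.08 and 0 kb at E10.5 and 3.43 to 7.51 kb in males. E10.5 replicate 3 was at 0 in both, as in 18 of the 20 bins.

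Among the 13 female bins, the one with the greatest mean length was chr7:66720001-66730000, with 0, 2.03 and 2.41 kb in females and 0, 0.531 and 0 kb at E10.5. At chr17:94850001-94860000 females had 1.20, 2.103 and 0.630 kb and no E10.5 list had a base. Such female bins were short in peaks compared with the shared ones, and 8 of the 13 had some E10.5 base. No bin of the 13 exceeded 2.41 kb in any female list.

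At chr10:57690001-57700000 the 2 marks were called at different stages. H3K9me3 peaks covered 0, 4.73 and 1.66 kb at E10.5 and 0 kb in all 6 E13.5 lists, male and female. H3K27me3 was called there in 0 of 3 E10.5 lists, in 3 of 3 female lists over 2.55 to 4.90 kb and in 3 of 3 male lists over 1.86 to 4.26 kb. E10.5 replicate 1 had no H3K9me3 peak in it, so this was seen in 2 of 3 libraries. Whether any library was exchanged with another was not tested beyond the labels. Over all autosomes, the share of H3K9me3 peak length inside H3K27me3 peaks of the same group and replicate number was 7.63, 0.227 and 4.18% at E10.5 and 1.64, 0.222 and 0.764% in females.

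The longest regions of E10.5 replicate 2 that no female list held were not held by the other E10.5 lists either. At chr7:18250001-18360000 replicate 2 had 33.4 kb in peaks, replicates 1 and 3 had 0 kb, and the female lists had 0.658, 1.73 and 0.640 kb. At chr19:3030001-3140000 replicate 2 had 31.6 kb, the other E10.5 lists 0 kb, and the female lists 1.61, 3.44 and 0.234 kb. Male lists covered 5.83 to 20.7 kb of the first region and 14.5 to 42.7 kb of the second. On chr19:39640001-39740000 replicate 2 had 36.1 kb and replicate 1 had 0.702 kb, while the female lists had 3.28, 3.03 and 1.03 kb. These regions were thus held by 1 E10.5 list and by no other list of its stage. E10.5 replicate 1 gave shorter regions, led by chr13:77360001-77380000 with 4.39 kb, where replicate 2 had 8.45 kb, replicate 3 had 0 kb and the female lists had 0.727, 1.68 and 0.906 kb.

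Shares of peak length in 1-Mb bins were compared with limma, as log2(ppm of a list's autosomal peak length + 100), where ppm is bases per megabase of peak length, with the 3 male lists in the fit. None of 2349 bins passed an adjusted p under 0.05, higher (0%) or lower (0%) in females. The lowest adjusted p was 0.505, and 201 bins had an unadjusted p under 0.05. The median log2 difference was 0.22, a value that depends on the added constant and on the shortest list. It was 0.81 with 10 ppm added, 0.025 with 1000 ppm added and -0.04 without E10.5 replicate 3. It is therefore not read as a general shift. The leading bin toward females, chr1:192000001-193000000, had 0, 152 and 0 ppm at E10.5 and 441, 400.4 and 642 in females, a log2 difference of 2.11 ± 0.44 (SE, limma adjusted p = 0.505). The leading bin toward E10.5, chr2:27000001-28000000, holds the chromosome 2 region described above and had 2356, 184 and 2942 ppm at E10.5 and 0 in every female list (-3.68 ± 0.80, limma adjusted p = 0.505).

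Leaving out E10.5 replicate 2 changed this result. Then 124 of 2349 bins (5.28%) were higher and 20 (0.851%) lower in females at an adjusted p under 0.05 in limma. Of the 124 higher bins, 103 were at 0 in both remaining E10.5 lists, which hold few peaks, as were 872 of all 2349 bins tested. With the 897 best peaks of every list, 783 bins had peaks in at least 3 libraries, and limma called 0 higher and 4 lower (0.511%) in females. Of these, 3 contain the chromosome 2, 14 and 18 places above, with log2 differences of -5.47 ± 0.72, -5.45 ± 0.73 and -5.58 ± 0.72 (SE, limma adjusted p = 0.00278 each). Among these 897 peaks all 3 female lists were at 0 in them and all 3 male lists were not. With all peaks the same bins gave -3.68 ± 0.80, -2.24 ± 0.82 and -1.68 ± 0.62 (limma adjusted p = 0.505 each), so the calls were lost, and in the chromosome 14 and 18 bins females then had means of 329 and 871 ppm. The fourth bin, chr1:8000001-9000000, had 1977, 5206 and 689 ppm at E10.5 and 0 in every female and male list (-4.36 ± 0.83, limma adjusted p = 0.0463). It met the rule of peaks in at least 3 libraries only through the 3 E10.5 lists, so its direction was fixed by that rule. Its p-value is therefore no evidence of a difference. The first 3 bins passed whichever of the 6 libraries was left out, and the fourth passed only without E10.5 replicate 3. Without that library the count rose to 1 higher and 9 lower. With all peaks the fourth bin had 1517 ± 817 ppm at E10.5 and 2230 ± 366 in females (SD, n = 3 each), a log2 difference of 0.66 ± 0.44 in the other direction (SE, limma adjusted p = 0.6996).

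No difference in the distribution over whole autosomes was called when all peaks were used. None of 19 autosomes passed higher (0%) or lower (0%) in females in limma on log2(percent of peak length + 0.1), with 0 at an unadjusted p under 0.05 and a lowest adjusted p of 0.406. Differences were called among the highest-scoring peaks. With 897 peaks per list 8 of 19 autosomes passed (42.1%), 2 higher and 6 lower in females. In this fit, and in the one below without the chromosome 11 region, limma gave all 19 autosomes 1 common SE. The p-values of these fits rest on a spread pooled over autosomes, not on that of each autosome alone. Shares within a list also sum to a fixed whole, so the autosomes are not independent. With scores of at least 20 in all lists 3 passed (15.8%), and autosomes 10, 14 and 15 were lower in females. That cut kept unlike parts of the lists, with 2626, 10195 and 680 peaks left at E10.5 and 1643, 1765 and 2272 in females. With 897 peaks, autosome 11 held 3.87, 5.43 and 7.74% of the length of the E10.5 lists and 12.1, 10.95 and 10.3% of the female lists (log2 difference 1.01 ± 0.28 SE, limma adjusted p = 0.00451). The groups did not overlap there, nor on autosomes 2, 3, 6, 10, 12 and 14, where females were lower. Of these, autosome 6 was not called. The difference on autosome 11 lay in 1 region, chr11:3020001-3100000, which held 9.46, 74.1 and 18.1 kb of these peaks at E10.5 and 70.4, 71.7 and 70.4 kb in females. With the region left out autosome 11 held 2.31, 1.65 and 2.74% of the remaining length at E10.5 and 1.15, 1.11 and 0.842% in females, so the direction turned (-1.03 ± 0.28, limma adjusted p = 0.00338). The region was picked from bins that all 3 female lists held, so leaving it out takes more from the female shares by choice. The turn is a description and not a test. In the fit without the region 7 of 19 autosomes passed (36.8%), with 1 and 8 higher and 2, 10, 11, 12 and 14 lower in females, under the same limit. With all 897 peaks, autosome 14 held 4.77, 2.35 and 4.25% at E10.5 and 2.34, 1.31 and 0.926% in females (-1.29 ± 0.28, limma adjusted p = 0.000205). The E10.5 replicate 2 value there was nearly that of the highest female list.

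Autosome 1 took the largest share in every list at this number of peaks. It held 13.3, 27.1 and 16.7% at E10.5 and 24.8, 36.8 and 30.9% in females, with the E10.5 replicate 2 value inside the female range (0.74 ± 0.28, limma adjusted p = 0.0311). The stretch of chromosome 1 described above held 5.25, 18.4 and 12.99% of the length of these E10.5 peaks and 20.2, 30.4 and 24.6% of the female ones. With the stretch left out autosome 1 no longer passed (0.05 ± 0.28, limma adjusted p = 0.870), and 5 of 19 autosomes did (26.3%), with 8 and 11 higher and 2, 10 and 14 lower in females. The stretch was bounded by bins that all 3 female lists held, so these values too are a description. With the stretch in place, the lower autosomes besides 14 were 2, 3, 10, 12 and 15, with log2 differences from -0.68 to -0.92. All 8 autosomes kept their direction whichever library was left out, with both regions in place. Without E10.5 replicate 1 only autosome 14 passed, and without female replicate 2 only 11 and 14 passed.

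**Figure D5:**
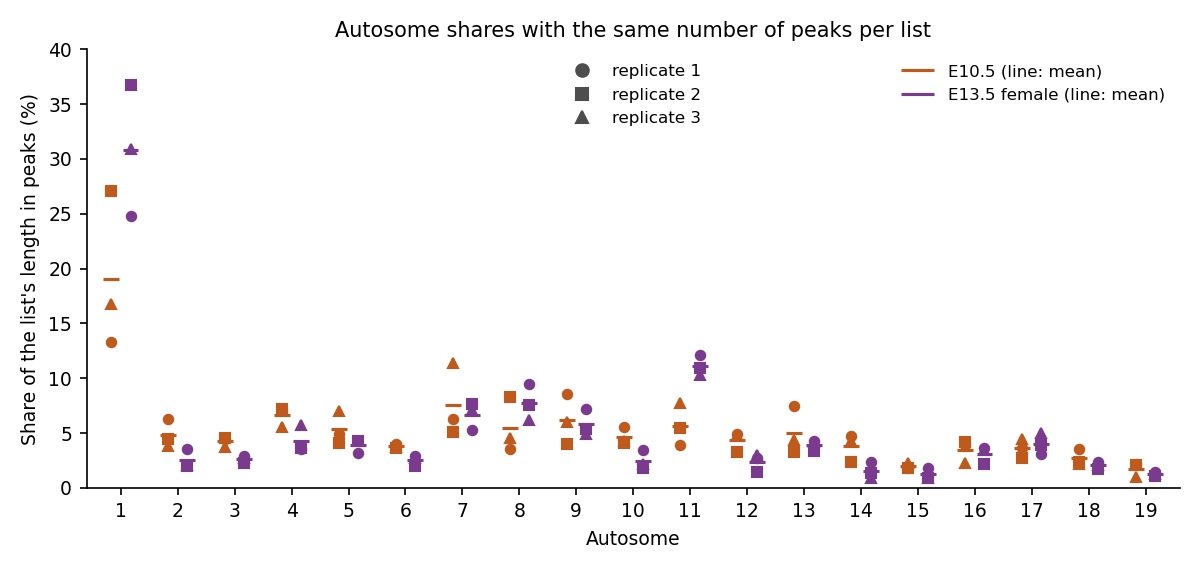
Share (%) of each list's length on each autosome, with the 897 highest-scoring peaks per list, for E10.5 and E13.5 female libraries (1 point per library, line at the mean of 3). Autosome 1 has the largest share in every list. The female points lie above all E10.5 points on autosome 11 and below all of them on autosomes 2, 3, 6, 10, 12 and 14. The order on autosome 11 turned when chr11:3020001-3100000 was left out. That region was picked from bins that all 3 female lists held, so the turn is a description.

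The share of peak length near the centromere did not differ beyond the spread with all peaks, and a gap seen among the highest-scoring peaks lay largely in a single region. With all peaks, the first 10 Mb of the autosomes, which make up 7.69% of autosomal length, held 12.4, 11.9 and 20.4% of the peak length at E10.5 and 14.8, 13.53 and 15.9% in females. The means were 14.9 ± 4.79% and 14.7 ± 1.20% (SD, n = 3 each), a difference of -0.18 percentage points (exact two-sided permutation p = 1, adjusted p = 1). With 897 peaks per list the shares were 17.4, 14.02 and 20.4% at E10.5 and 24.6, 21.9 and 23.4% in females. All female values were then above all E10.5 values, by 5.98 percentage points in the mean (exact permutation p = 0.1, the smallest that 3 against 3 can give). The first 5 Mb gave 11.97, 10.3 and 12.4% at E10.5 and 21.4, 18.6 and 19.8% in females at this number of peaks, again without overlap. Without chr11:3020001-3100000, which lies in both windows, the first 10 Mb held 16.1, 10.6 and 16.1% at E10.5 and 15.2, 13.2 and 15.2% in females, a difference of 0.297 percentage points (exact permutation p = 1). The first 5 Mb then held 10.54, 6.67 and 7.64% at E10.5 and 11.6, 9.63 and 11.3% in females (exact permutation p = 0.2). Leaving out these 2 regions was chosen after the values were seen, and both were picked from bins that all 3 female lists held. The values without them are therefore a description. Of the 163 bins that all female lists held, 34 lay in the first 10 Mb.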

How the data were processed

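Peak lists of 6 H3K9me3 libraries were read, with the 3 E13.5 male H3K9me3 lists and the 9 H3K27me3 lists for comparison. Each deposited list holds the authors' broad peaks of 1 library, called against an input per the peak names in the files, in mm9 coordinates per the submitters' processing notes. Those notes list MACS2 2.1.0, deepTools 3.3.0, BWA 0.7.5a, CASAVA 1.8.4, SAMtools and Picard without roles. The peak threshold is not given in the sources used here, nor are read filters. A deposited score is the authors' own value of a peak and its scale is not known, since column 9 exceeded column 8 in 100% of peaks, so scores only ranked or filtered peaks. Peak positions as deposited gave all other values. Samples were grouped by their titles.

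Peaks were merged within a library and cut to autosomes 1 to 19, whose length was taken as the last peak end (2472 Mb, 247207 bins). A 10-kb bin was held at 1 kb or more in peaks. Exact permutation over all 20 splits tested single values. limma 3.58.1 in R 4.3.3 tested 1-Mb bins with peaks in at least 3 of the 9 H3K9me3 libraries and the 19 autosomes, with Benjamini-Hochberg adjustment and a threshold of 0.05, on shares of peak length with 100 ppm or 0.1 percent added. The bin counting was checked on a small made-up example, and the fit was run on simulated shares. The simulated noise was the same for every bin and library, unlike that of the E10.5 lists. The simulation therefore does not show how the fit performs on these lists. Tables were handled in Python 3.11.15 with pandas 2.3.3. The alternatives were scores of at least 20, the 897 highest-scoring peaks per list, other overlaps, bin sizes and added constants, each library left out, a replicate block, bins without H3K27me3 peaks, and the chromosome 11 region or chromosome 1 stretch left out, the last 3 chosen after seeing the data. The members, classes and lists were chosen with earlier results of these data known. Regions named are the 5 longest of each class (all 12 for bins of all 6 lists), and the chromosome 1 stretch, the leading bins of looser classes and the places found with equal numbers of peaks were chosen after their values were seen. Gene names, gene lists and sequences planned for these regions were not used, because the reference at hand is of another build. Inputs were not analysed here.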

Additional observations from a re-analysis of the deposited data

Results flagged for a closer look

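E13.5 female replicate 2 held 7 peaks on the mitochondrial genome, which carries no histones and lies outside the autosomes compared. The E10.5 lists held 0 such peaks, female replicate 1 held 0 and female replicate 3 held 1.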

How the results depend on the processing

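Of 16 results and their alternatives, 102 values were labelled the same, 46 moved and 9 reversed. For the differences in length, width and first-10-Mb share, the same meant only the same sign. For counts it meant close to the main count, as with 3 bins against 2. For shares it meant inside the counting-error interval of the main share. The labels therefore do not measure the spread between libraries. Leaving out E10.5 replicate 2 turned the difference in length to 4.88 Mb and in width to 63.8 bp, higher in females. The first-10-Mb difference turned positive at 4.07 with scores of at least 20, 5.98 with equal numbers of peaks, 2.58 without E10.5 replicate 3, 0.425 without female replicate 2 and 2.12 for the first 20 Mb. With any overlap, bins of all E10.5 lists only were 11, of all female lists only 57 and of all 6 lists 100, and with 50% overlap the first and last were 0. Without bins that touch H3K27me3 the last was 12. Equal numbers of peaks gave 4 lower 1-Mb bins, 2 higher and 6 lower autosomes, and scores of at least 20 gave 3 lower autosomes. With equal numbers and the chromosome 11 region left out the first-10-Mb difference was 0.297, with 2 higher and 5 lower autosomes, and with the chromosome 1 stretch left out it was 11.4, with 2 higher and 3 lower. Bins of E10.5 replicates 1, 2 and 3 in a female list were 84.03, 58.5 and 78.2% with any overlap and 40.3, 36 and 77.2% with equal numbers, and with scores of at least 20 they were 17.0% and 7.16% for replicates 1 and 2. Shared female bins held were 41.0% for replicate 1 with equal numbers, 96.1% for replicate 2 with any overlap, and for replicate 3 13.2% with any overlap, 44.0% with scores of at least 20 and 50% with equal numbers. The cut at a score of 20 kept 2626 of 2643 autosomal peaks of E10.5 replicate 1 but 1765 of 16342 of female replicate 2. Values at that cut thus do not compare like parts of the lists. The cause of these shifts was not tested.

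Leaving out each library in turn gave ranges of -16.3 to 4.88 Mb for length, -321 to 63.8 bp for width and -1.70 to 2.58 for the first 10 Mb. Bins ranged from 2 to 188 for E10.5 only, 0 to 89 for female only and 19 to 52 for all 6 lists. Higher 1-Mb bins ranged from 0 to 124 and lower ones from 0 to 20, and autosomes stayed at 0. Shares in a female list ranged from 37.4 to 60.0%, 13.2 to 26.6% and 86.0 to 91.2% for E10.5 replicates 1, 2 and 3, and shared female bins held from 16.04 to 28.3%, 98.3 to 99.5% and 7.96 to 20%. Libraries of the same number correlated at 0.0430, 0.103 and 0.0583 over 2349 bins in their deviations from group means, each best with its own number, which does not pair them. The replicate block gave 0 1-Mb bins and 0 autosomes in each direction, and length, width and first-10-Mb p of 1, 0.75 and 1 by exact permutation within numbers. Depth is unknown, and the 897 peaks of E10.5 replicate 3 limit what any count over all 3 E10.5 lists can show.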

Other observations

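Counting any overlap of a base in place of 1 kb, 57 bins had a peak in all 3 female lists and in no E10.5 list, and 11 had one in all 3 E10.5 lists and in no female list. The E10.5 lists touched 2573, 20882 and 816 bins and the female lists 7575, 12530 and 4824. Shares over all touched bins were not computed. All 3 male lists had a base in 46 of the 57 bins and in 8 of the 11. The male lists touched 35489, 27837 and 20582 of the 247207 autosomal bins. The 57 bins were spread over 18 autosomes, and the 11 over 9 autosomes. Of the 57, 4 lay in the first 10 Mb, which make up 7.69% of autosomal length.

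Over all 18 lists of both marks, 7 autosomal bins were touched by every list. Of these, 4 are the bins of chr9:3000001-3040000, and the others are chr3:5860001-5870000, chr4:118220001-118230000 and chr11:108870001-108880000. These were found after the values were seen, and the part of repeats or mapping there was not tested.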
